A study of Homo sapiens with 12 samples.

Results

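The response of HCC1806 cells to doxorubicin differed between MLK4-depleted and control cells for a small set of genes. DUSP6, ETV5, ETV1 and EGR1, which report ERK activity, responded more positively in MLK4-depleted cells, whereas KIT and PADI2 responded more negatively. Negative interactions were also called for 3 keratins, of which KRT5 passed in 2 of the 12 fits without 1 library, and for the cytokines IL6, IL24 and TNFSF15, none of which passed with limma-voom, a fit to the read counts themselves (adjusted p of 0.61, 0.64 and 0.092). The quantity described throughout is the interaction, which is the response to doxorubicin (doxorubicin minus vehicle) in siMLK4 cells minus the response in siNT cells, on the log2 scale of variance-stabilized read counts. A positive interaction therefore means a larger rise or a smaller fall when MLK4 was depleted. All 17013 genes of the 17013 in the deposited table and all 12 libraries were used.

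HCC1806 is an established human triple-negative breast cancer cell line, meaning that it derives from a tumour without oestrogen receptor, progesterone receptor or amplified HER2. Cells received either a non-targeting siRNA (siNT) or siRNA against MLK4 (siMLK4), and then vehicle or 1 μM doxorubicin for 24 h, which gave the 4 groups siNT vehicle, siNT doxorubicin, siMLK4 vehicle and siMLK4 doxorubicin. Each group had 3 mRNA-seq libraries, and no other treatment was shared by the groups. The labels name the vehicle DMSO and mark its libraries as time 0, while the design text gives 24 h for both treatments, so that if vehicle cells were harvested earlier, time in culture and doxorubicin cannot be told apart. According to the methods, each siRNA was transfected in triplicate, so the replicates are separate transfections of 1 cell line, and whether these were done on separate days is not given in the sources used here. The spread behind each p-value is that between these libraries, which may be technical. In bulk RNA of this kind, a change in the share of cells that express a gene and a change in RNA per cell cannot be told apart.

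Doxorubicin is an anthracycline that intercalates into DNA and traps topoisomerase II on it, leaving double-strand breaks that activate the ATM kinase, p53 and NF-κB. MLK4, encoded by MAP3K21, is a mixed-lineage kinase, one of the MAP3 kinases that sit at the top of the cascades leading to the kinases JNK, p38 and ERK. ERK signalling is commonly read at the RNA level from the genes it induces within hours, many of which encode its own inhibitors, such as the DUSP phosphatases and the SPRY and SPRED proteins. Whether MLK4 loss alters the response to DNA damage is the question that the comparison of the 2 responses addresses.

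The 4 siRNAs of the siMLK4 pool are shown because they define the perturbation on which the comparison rests. The guide strand of each is given 5′ to 3′ as RNA, as the reverse complement of the 19-base sense sequence listed by the study, and capitals mark the seed (bases 2 to 8), which also sets what else a guide can bind. With 1 pool in 1 cell line, effects of MLK4 loss and off-target effects of the pool cannot be told apart.
siMLK4_1: uCUCUCUGagcaucuuucc
siMLK4_2: uUUACCUUgggcuucuccu
siMLK4_3: aUUCCCUCucguuucuucu
siMLK4_4: uUUCUUUGcaaucuguucu
The 4 seeds differ from one another. Each siRNA matched the MAP3K21 transcript ENST00000366624 once over 19 bases, and all 4 sites lay in coding sequence on the forward strand of chromosome 1 (GRCh38, GENCODE 44). siMLK4_2 targets exon 5 (chr1:233362204-233362222) and siMLK4_4 exon 7 (chr1:233376047-233376065). siMLK4_1 (chr1:233379030-233379048) and siMLK4_3 (chr1:233379276-233379294) both target exon 9 of the 10 exons. A 7-base word complementary to at least 1 of the 4 seeds occurred in the 3′UTR of 44.3% of all genes with an annotated 3′UTR. The share was 48.9% of the genes with a positive and 56.8% of those with a negative interaction, which also had longer 3′UTRs (medians of 1578.5 and 1520 bases against 1310).

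MAP3K21 (ENSG00000143674, chromosome 1, 233327724 to 233385148) was depleted in both treatments, and its own response to doxorubicin showed no detectable difference between the siRNAs. The 3 libraries of each group read 553, 670 and 674 normalized reads in siNT vehicle, 758, 856 and 772 in siNT doxorubicin, 103, 94.7 and 88.7 in siMLK4 vehicle, and 113, 138 and 94.4 in siMLK4 doxorubicin. All siMLK4 libraries lay below all siNT libraries. The difference between the siRNAs was −2.24 in vehicle and −2.37 under doxorubicin (limma adjusted p = 9.7e-08 and 1.1e-07), and the interaction was −0.13 (SE 0.17, adjusted p = 0.81).

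The label of a basal, triple-negative epithelial line was checked against marker genes. Basal markers such as KRT5, TP63 and EGFR were abundant, with 28629 to 88414 normalized reads summed over the 10 markers in a library. The luminal keratins KRT8, KRT18 and KRT19 were also abundant, and the 9 luminal markers summed to 28735 to 94034. By contrast ESR1, the oestrogen receptor, averaged 46.5 to 117 reads per group. PGR, the progesterone receptor, was at 0 in all 6 vehicle libraries. It read 20, 12 and 9 in siNT doxorubicin and 14, 19 and 8 in siMLK4 doxorubicin. ERBB2, the HER2 gene, had 1133 to 2222 reads in a library. Of 10 fibroblast markers, 6 were measured and summed to 358 to 923 reads, most of them from COL1A1. Of 10 haematopoietic markers, 3 were measured (PTPRC, CD14 and CD4) and summed to 23.5 to 65 reads. None of the fibroblast or haematopoietic markers had a called interaction.

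Some libraries stood apart within their groups in ways that the groups do not explain. Each library held between 16759025 and 19302248 reads assigned to genes. The deviation of each library from the mean of all 12, taken gene by gene, followed transcript length, with slopes (log2 per 10-fold length) of −0.32, 0.08 and 0.34 in siNT vehicle replicates 1 to 3 and of 0.36, 0.09 and −0.45 in those of siMLK4 vehicle. In the doxorubicin groups the slopes lay between −0.24 and 0.19. Cytosolic ribosomal protein genes, which are short, took 7.58% of the reads in siNT vehicle replicate 1 and 9.58% in siMLK4 vehicle replicate 3, against 4.24 to 6.29% in the other 10 libraries. Adding the length slope of each library to the model raised the number of called interactions from 204 to 1387 (8.15% of all genes, with 4.43% positive and 3.73% negative), and all 204 remained called. This covariate was chosen after the data had been seen.

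Doxorubicin changed most genes with either siRNA, and the test of the difference between the responses passed for few. With an adjusted p under 0.05 as the threshold, 57.3% of all genes responded to doxorubicin in siNT cells (29.6% rose and 27.7% fell) and 57.9% in siMLK4 cells (30.2% rose and 27.7% fell). The interaction passed for 204 genes, or 1.2% of those tested, of which 98 (0.576%) were positive and 106 (0.623%) negative. Across all genes its median was 0.01, with quartiles of −0.17 and 0.19. The median absolute response was likewise 0.404 in siNT and 0.407 in siMLK4 cells. With thresholds of 0.01 for the adjusted p and 0.75 for the absolute value, 47 genes (0.276%) passed, and without siMLK4 doxorubicin replicate 1 none did, although 58 still passed at an adjusted p under 0.05. Leaving out any 1 library left between 58 and 351 called genes, and 54 of the 204 were called in all 12 such fits.

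**Figure D1:**
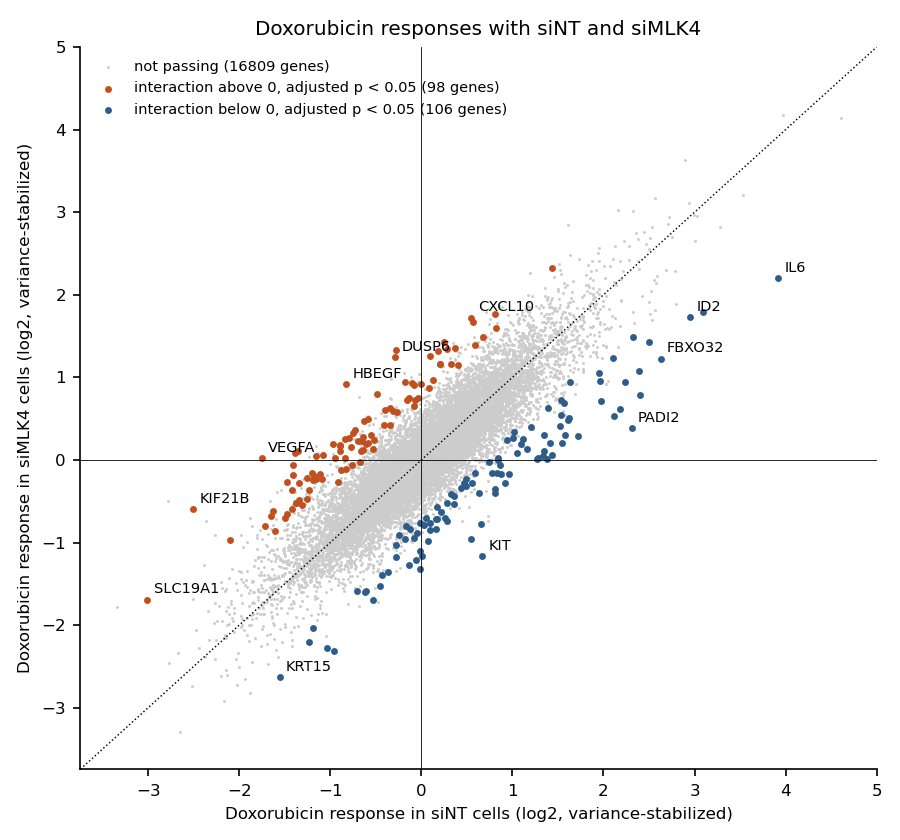
The response to doxorubicin in siNT cells (x axis) is plotted against that in siMLK4 cells (y axis) for all 17013 genes, each as a log2 difference of group means over 3 libraries, and the dotted line marks equal responses. The 98 genes with a positive interaction (orange) lie above the line and the 106 with a negative interaction (blue) below it, while all other genes (grey) follow the line.

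The called interactions took several forms. Of the 98 positive genes, 68 fell with doxorubicin in siNT cells, and 39 of these did not pass in siMLK4 cells. Of the 106 negative genes, 68 rose in siNT cells, of which 26 did not pass in siMLK4 cells. In 25 of the 204 the response passed in both cell populations with opposite signs.

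The siRNA difference itself shows at which treatment the gap opened. For 69 of the 204 genes siMLK4 and siNT cells differed in vehicle alone, for 77 under doxorubicin alone, and for 58 under both (adjusted p under 0.05), of which 28 differed in opposite directions. Of all genes, 25.8% differed between the siRNAs in vehicle (12.7% higher and 13% lower in siMLK4) and 24.8% under doxorubicin (12.7% and 12.1%). Each of these shares includes genes that differed under both treatments. The interaction is itself the siRNA difference under doxorubicin minus that in vehicle. Genes called for it were thus selected to differ in vehicle, under doxorubicin or in both, and their counts cannot be compared with these shares. The single libraries of 2 groups did not overlap for 62.4% of all genes between the treatments in siNT cells and 63.8% in siMLK4 cells, and for 37.8% between the siRNAs in vehicle and 43.9% under doxorubicin. For HBEGF, VEGFA, KIT and NYNRIN the siRNA groups were far apart in vehicle and closer under doxorubicin. For PADI2, IL6, PLAT, SLC6A2 and INPP5A they were close in vehicle and apart under doxorubicin.

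**Figure D2:**
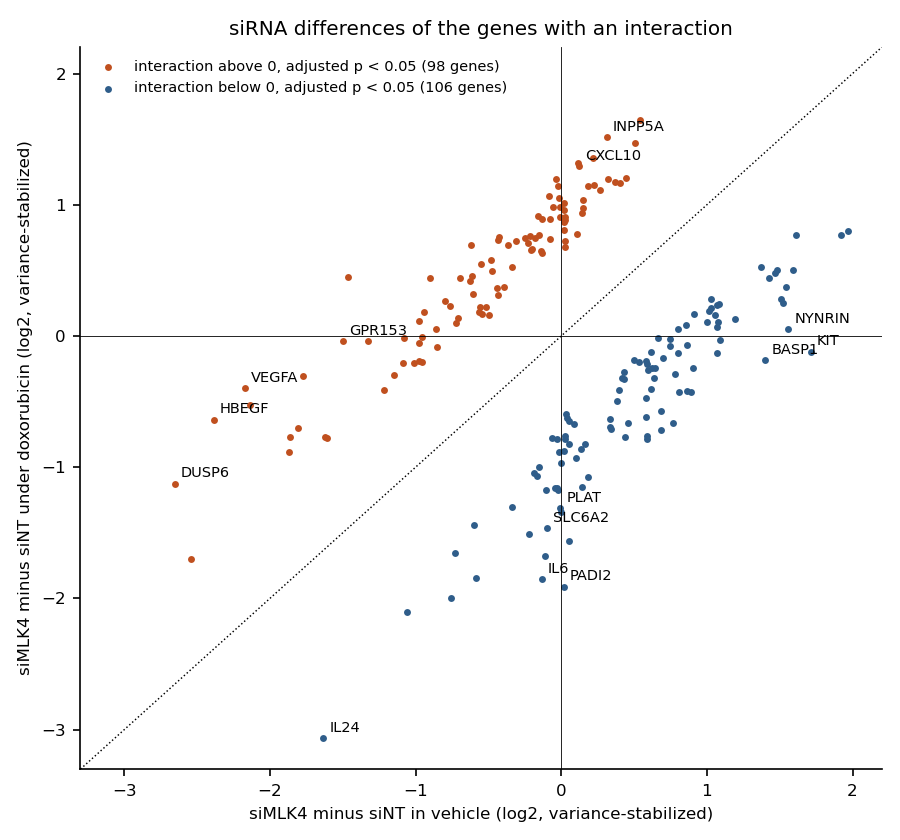
For the 204 genes with a called interaction, the difference between siMLK4 and siNT cells in vehicle (x axis) is plotted against that under doxorubicin (y axis), both as log2 differences of group means over 3 libraries, with a dotted line of equality. Genes near the horizontal line, such as KIT and VEGFA, differed in vehicle, and genes near the vertical line, such as PADI2 and INPP5A, differed under doxorubicin.

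Genes that report ERK activity were called in the positive direction. Of 22 measured ERK feedback genes, 4 had a called positive interaction and none a negative one, against 0.576% and 0.623% of all genes. The median interaction of the list was 0.55 (quartiles 0.07 and 0.69), and 17 of the 22 were positive. With siNT 4 genes rose and 8 fell (median response −0.28), against 29.6% and 27.7% of all genes. With siMLK4 11 rose and 4 fell (median 0.37), against 30.2% and 27.7%. The list was far lower in siMLK4 than in siNT cells in vehicle (median −1.15) and less so under doxorubicin (median −0.67). Averaged over the list, the 3 siMLK4 vehicle libraries stood at −1.07, −0.996 and −1.17 (log2 against the siNT vehicle mean), and the siMLK4 doxorubicin libraries at −0.72, −0.69 and −0.67. Within siMLK4 cells the 2 treatments therefore did not overlap, whereas the siNT libraries lay between −0.15 and 0.07 with either treatment.

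DUSP6, the phosphatase that inactivates ERK, had the most firmly called interaction of the list. Its 3 libraries read 1686, 1220 and 1470 normalized reads in siNT vehicle, 1160, 1164 and 1204 in siNT doxorubicin, 176, 216 and 171 in siMLK4 vehicle, and 479, 545 and 510 in siMLK4 doxorubicin. With doxorubicin the siMLK4 libraries lay above their vehicle range and the siNT libraries just below theirs, and siMLK4 cells stayed below siNT cells throughout. The interaction was 1.53 (SE 0.17, limma adjusted p = 0.0016), from a response of −0.29 in siNT cells (adjusted p = 0.056) and of 1.24 in siMLK4 cells (adjusted p = 1.8e-06). DUSP6 (ENSG00000139318) remained called in all 12 fits that each left out 1 library.

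ETV5 and ETV1, transcription factors of the PEA3 family that ERK signalling induces, followed the same course. ETV5 read 1306, 724 and 1275 normalized reads in siNT vehicle and 890, 918 and 802 in siNT doxorubicin, against 223, 206 and 182 in siMLK4 vehicle and 589, 670 and 509 in siMLK4 doxorubicin. The siNT groups overlapped and the siMLK4 groups did not. The interaction of ETV5 was 1.61 (SE 0.25, limma adjusted p = 0.0074). For ETV1 it was 1.29 (SE 0.24, adjusted p = 0.017), with a fall of −0.49 in siNT cells and a rise of 0.80 in siMLK4 cells, and the call was lost without siMLK4 doxorubicin replicate 2 or siNT doxorubicin replicate 2 (highest adjusted p = 0.056).

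EGR1, an immediate early transcription factor downstream of ERK, rose in both cell populations and more so in siMLK4 cells. It read 477, 369 and 518 normalized reads in siNT vehicle, 717, 655 and 700 in siNT doxorubicin, 98.2, 95.7 and 89.7 in siMLK4 vehicle, and 419, 355 and 441 in siMLK4 doxorubicin. The 4 groups overlapped only where siMLK4 doxorubicin met siNT vehicle. The interaction was 1.10 (SE 0.17, limma adjusted p = 0.0074), and the call was kept in all 12 fits without 1 library. The lowest member of the list was PHLDA1, with an interaction of −0.34 that did not pass. With the length slopes of the libraries in the model, 11 of the 22 genes passed, all of them positive, against 4.43% of all genes in that direction.

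**Figure D3:**
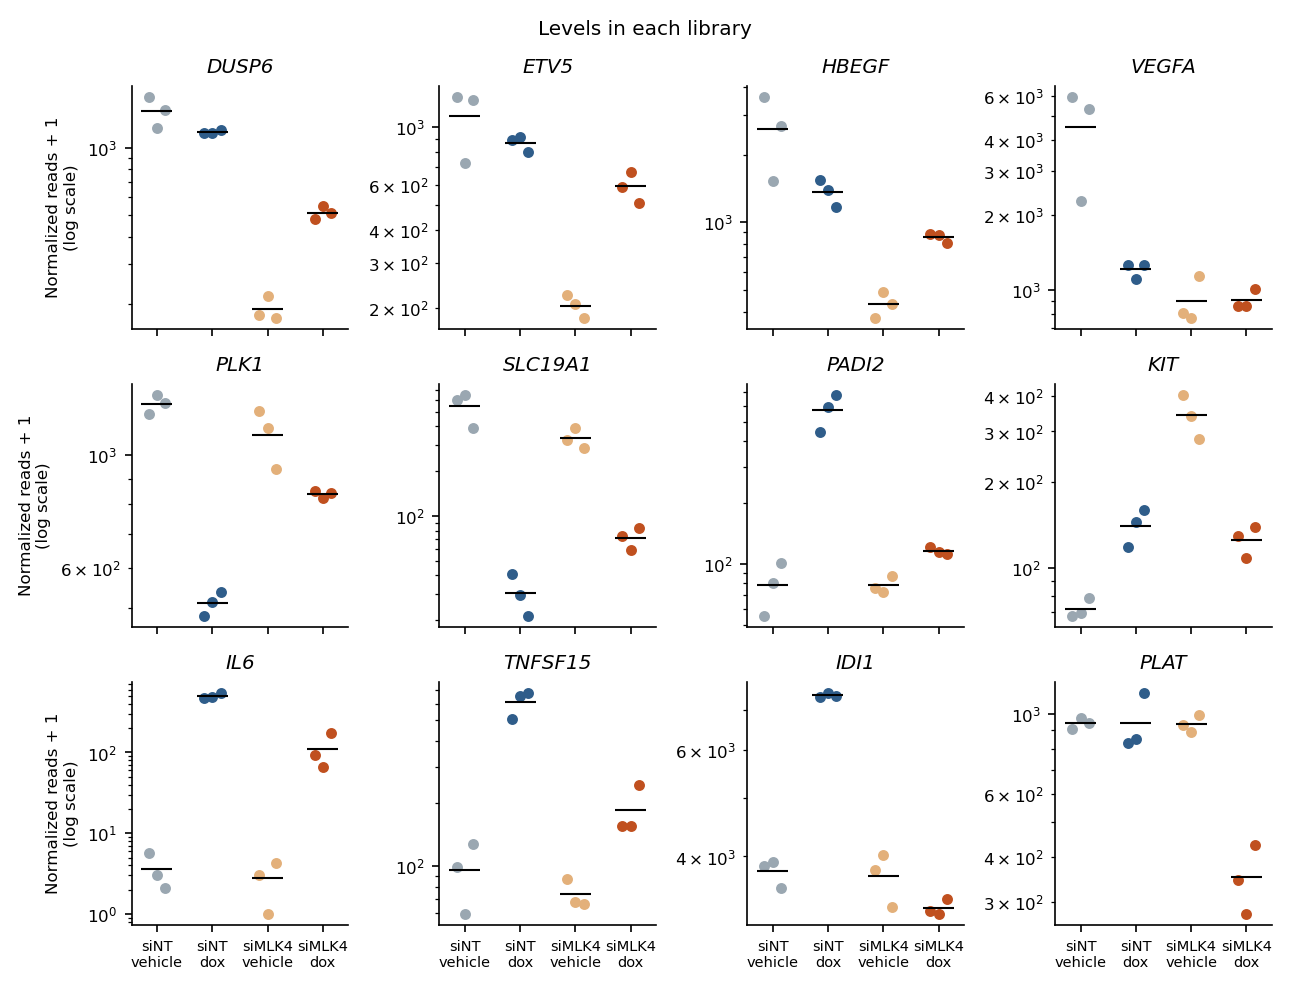
Normalized reads plus 1 on a log axis are shown for 12 genes in the 4 groups, with a point for each library and a bar at the mean of the 3. DUSP6, ETV5 and HBEGF rise in siMLK4 cells alone, PADI2 rises mainly in siNT cells, PLAT falls in siMLK4 cells alone, and IDI1 rises in siNT cells alone.

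Ligands of the EGF receptor, which act upstream of ERK, were split. Of 14 measured ligands and receptors of the family, 2 had a called positive interaction and none a negative one, against 0.576% and 0.623% of all genes. The median was 0.08 with 8 positive members. HBEGF (ENSG00000113070), a heparin-binding EGF-like growth factor, read 3606, 1521 and 2689 normalized reads in siNT vehicle, 1543, 1395 and 1167 in siNT doxorubicin, 372, 485 and 431 in siMLK4 vehicle, and 884, 874 and 808 in siMLK4 doxorubicin. Doxorubicin lowered it in siNT cells, where replicate 2 of vehicle lay within the doxorubicin range, and raised it in siMLK4 cells without overlap. The interaction was 1.75 (SE 0.32, limma adjusted p = 0.016), and it did not pass without siMLK4 doxorubicin replicate 1 (1.73, adjusted p = 0.061).

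TGFA, transforming growth factor alpha, likewise fell in siNT cells (−0.41) and rose in siMLK4 cells (0.42), with an interaction of 0.83 (SE 0.17, limma adjusted p = 0.028). It passed in 7 of the 12 fits without 1 library and had an adjusted p of 0.084 without siMLK4 doxorubicin replicate 1. The ligands EREG (1.07) and AREG (0.99) had values of similar size that did not pass (adjusted p = 0.081 and 0.41). EPGN, the lowest member, stood at −0.50 and ERRFI1, a feedback inhibitor of the receptor, at 0.45, and neither passed. Among 31 AP-1 and immediate early factors, EGR1 and JUN (0.78, limma adjusted p = 0.036) had called positive interactions. ARC had a called negative one (−0.86, adjusted p = 0.047), and the median was 0.10. Of all genes 0.576% were called positive and 0.623% negative. JUN and ARC each passed in 1 of the 12 fits without 1 library, with adjusted p of up to 0.12.

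Genes of the ATF4 stress response had the highest median interaction of the 41 function lists, 0.70 (quartiles 0.42 and 1.06), with 37 of 38 measured genes positive against 52.1% of all genes. ATF4 is the transcription factor of the integrated stress response and drives amino acid synthesis and uptake. In siNT cells 26 of the genes fell and 3 rose with doxorubicin (median −0.86), against 27.7% and 29.6% of all genes. In siMLK4 cells 12 fell and 7 rose (median −0.29), against 27.7% and 30.2%. Of the 38, VEGFA alone had a called interaction. The highest single value was that of CHAC1, a glutathione-degrading enzyme induced by ATF4 (2.29, SE 0.69, limma adjusted p = 0.12), and the lowest that of HSPA5, the chaperone BiP (−0.04), and neither passed.

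Vehicle libraries of the same group differed widely for this list. Averaged over its genes, siNT vehicle replicates 1, 2 and 3 stood at 0.43, −0.62 and 0.20, and siMLK4 vehicle replicates at −0.93, −1.02 and −0.28. The 2 vehicle groups thus overlapped, while all doxorubicin libraries lay between −0.96 and −0.67. Leaving out 1 library gave ATF4 list medians from 0.55 (without siNT vehicle replicate 1) to 1.02 (without siNT vehicle replicate 2). In these fits 9 genes passed without siNT vehicle replicate 2, 4 without siMLK4 vehicle replicate 3 and none without any of the other 10. With the length slopes in the model 11 passed, all positive, against 4.43% of all genes in that direction.

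VEGFA, the main angiogenic growth factor and also a hypoxia and ATF4 target, read 5956, 2282 and 5321 normalized reads in siNT vehicle, 1253, 1102 and 1259 in siNT doxorubicin, 802, 764 and 1128 in siMLK4 vehicle, and 856, 855 and 1002 in siMLK4 doxorubicin. It fell in siNT cells, where the doxorubicin libraries still lay above those of siMLK4 cells, with a difference between the siRNAs of −0.40 (adjusted p = 0.3). The interaction was 1.78 (SE 0.37, limma adjusted p = 0.033). It rested on the full set of libraries, since it passed in 2 of the 12 fits without 1 library, those without siNT vehicle replicate 2 or siMLK4 vehicle replicate 3, and its adjusted p reached 0.089 without siMLK4 vehicle replicate 2. Aminoacyl-tRNA synthetases, which charge tRNAs and include ATF4 targets, had a median of 0.24 with 19 of 23 genes positive and none called, from 0.66 for AARS1 to −0.17 for AIMP1.

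**Figure D4:**
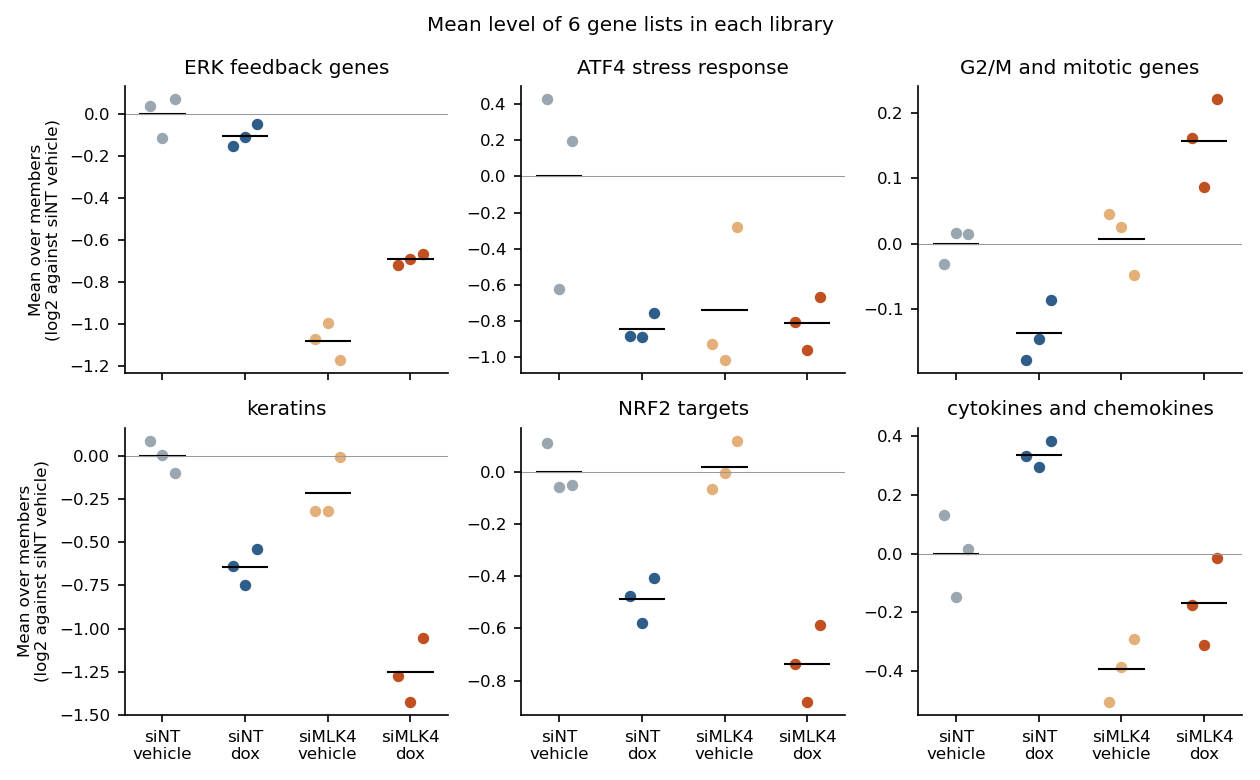
For 6 gene lists, the mean of the members' log2 values relative to the siNT vehicle mean is shown with a point for each library and a bar for the mean of the 3. The ERK feedback list rises with doxorubicin in siMLK4 cells alone, the ATF4 list has 1 outlying library in each vehicle group, and the keratin and NRF2 lists are lowest in siMLK4 doxorubicin.

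Among mitotic genes 1 interaction was called, and most of the others were small and above 0. Of 62 measured G2/M genes 59 had an interaction above 0, against 52.1% of all genes, with a median of 0.26 (quartiles 0.17 and 0.41), and 1 of them passed, against 0.576% of all genes. In siNT cells 20 genes fell and 10 rose (median −0.11), against 27.7% and 29.6% of all genes. In siMLK4 cells 9 fell and 24 rose (median 0.16), against 27.7% and 30.2%. The list means of the 3 siNT doxorubicin libraries were −0.18, −0.15 and −0.09 and those of siMLK4 doxorubicin 0.16, 0.09 and 0.22, without overlap, and the vehicle libraries lay between −0.05 and 0.05. The list median stayed between 0.24 and 0.30 whichever library was left out.

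PLK1, the kinase that drives mitotic entry and spindle assembly, was the called gene. It read 1205, 1316 and 1270 normalized reads in siNT vehicle, 480, 511 and 536 in siNT doxorubicin, 1220, 1132 and 937 in siMLK4 vehicle, and 849, 823 and 840 in siMLK4 doxorubicin. Both falls were without overlap, and the doxorubicin groups were apart. The interaction was 0.87 (SE 0.15, limma adjusted p = 0.012) and did not pass without siMLK4 doxorubicin replicate 1 (0.86, adjusted p = 0.0595). The lowest value was that of CENPK, a centromere protein, at −0.17. With the length slopes in the model 16 of the 62 genes passed, all positive, against 4.43% of all genes in that direction. Genes of DNA replication had a median of 0.16 (41 of 53 positive) and those of DNA break signalling and repair 0.12 (43 of 58). Genes listed as p53 targets had a median of 0.17 (20 of 32), against 52.1% of all genes positive, and whether p53 acts on them here was not tested. Leaving out 1 library gave medians of 0.10 to 0.20, 0.05 to 0.19 and 0.05 to 0.17, in this order. The single called gene of these lists was BTG2, an antiproliferative p53 target, at −0.68 (limma adjusted p = 0.042). It passed in 3 of the 12 fits without 1 library (adjusted p of up to 0.12).

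**Figure D5:**
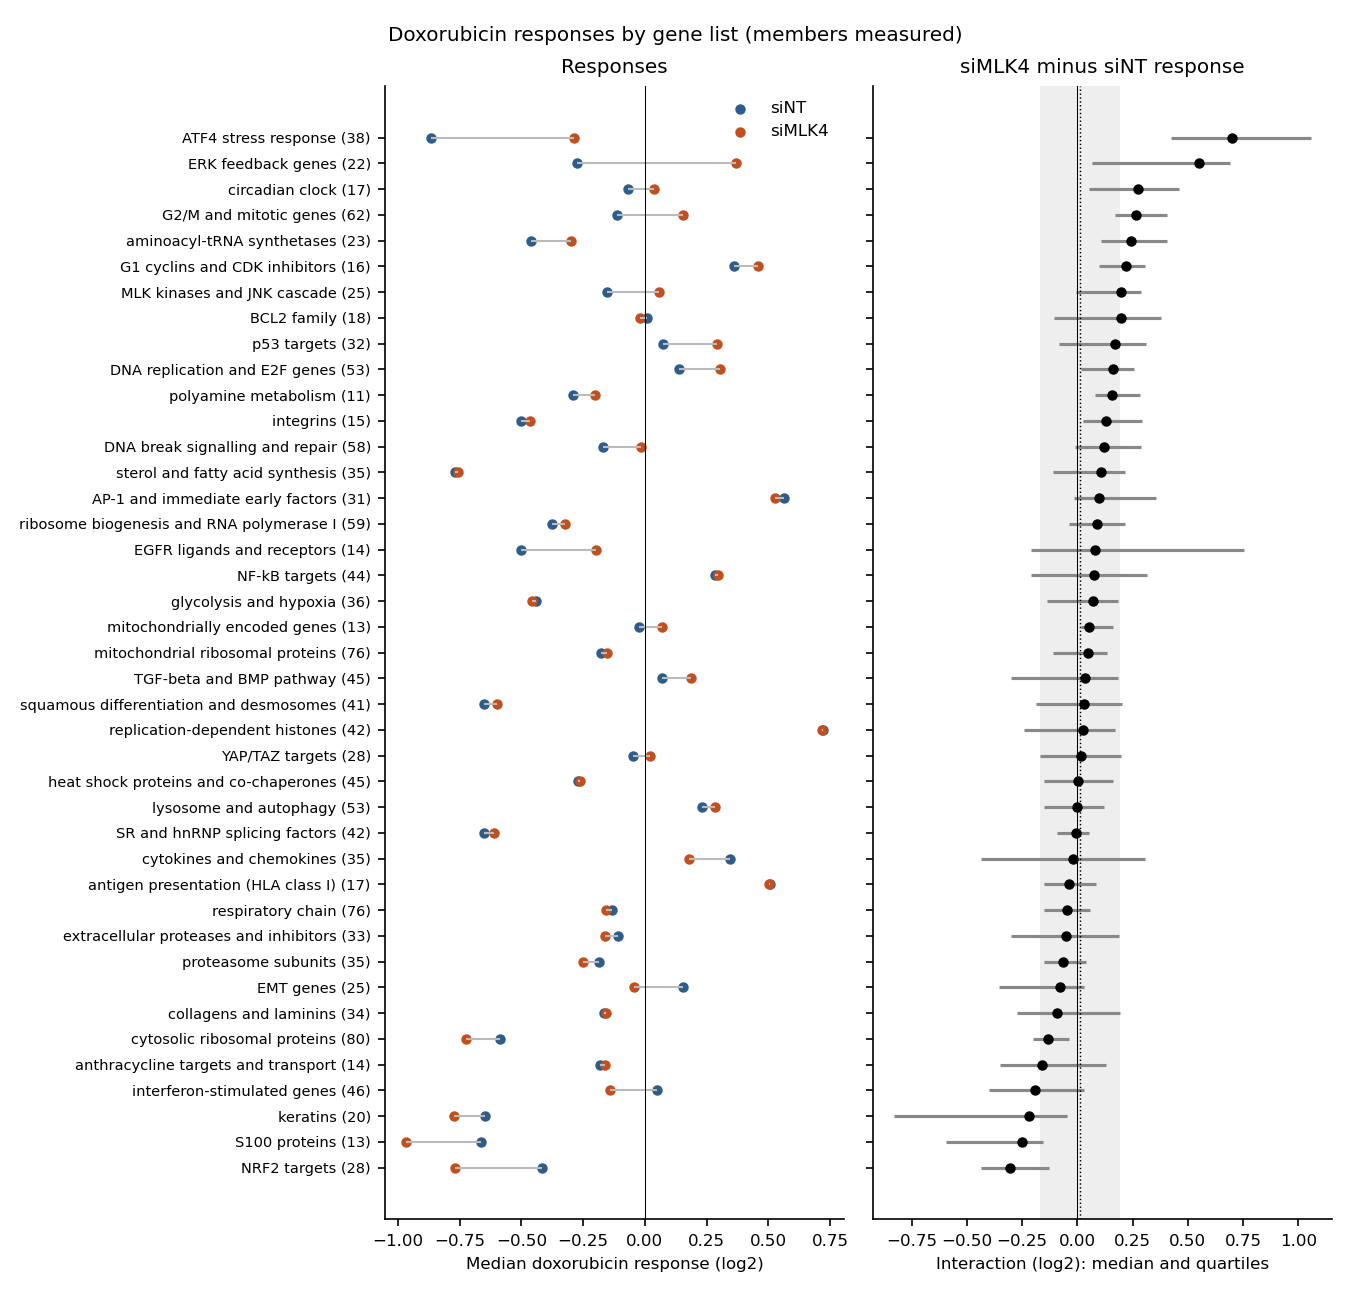
Each row is 1 of 41 gene lists with its number of measured genes, ordered by median interaction. The left panel shows the median log2 response to doxorubicin in siNT (blue) and siMLK4 (orange) cells, and the right panel the median interaction with its quartiles, beside the median (dotted line) and quartiles (grey band) of all genes. The ATF4 and ERK feedback lists stand at the top and NRF2 targets at the bottom.

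Among the positive genes outside these lists, several fell with doxorubicin in siNT cells and hardly moved in siMLK4 cells. GPR153 (ENSG00000158292), an orphan G-protein-coupled receptor, read 883, 980 and 731 normalized reads in siNT vehicle and 335, 306 and 278 in siNT doxorubicin, against 284, 262 and 265 in siMLK4 vehicle and 307, 315 and 267 in siMLK4 doxorubicin. The siNT vehicle libraries stood alone above the other 9. Its interaction was 1.46 (SE 0.17, limma adjusted p = 0.0016). SAPCD2, a regulator of spindle orientation, fell by 1.41 on the log2 scale in siNT cells, against −0.07 in siMLK4 cells that did not pass, with an interaction of 1.34 (SE 0.16, adjusted p = 0.0019). Both calls were kept in all 12 fits without 1 library.

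INPP5A, an inositol phosphate phosphatase, differed in another way, since its vehicle groups nearly met. It read 1138, 1127.5 and 962 normalized reads in siNT vehicle and 1214, 1398 and 1431 in siMLK4 vehicle, and fell to 411, 375.6 and 285 in siNT doxorubicin while siMLK4 doxorubicin read 1211, 1268 and 885.5. The doxorubicin groups did not overlap. Its interaction was 1.21 (SE 0.21, limma adjusted p = 0.013) and did not pass without siMLK4 doxorubicin replicate 1 (1.15, adjusted p = 0.061). MPC1, a subunit of the mitochondrial pyruvate carrier, rose in siMLK4 cells (1.43) and not detectably in siNT cells (0.25, adjusted p = 0.11), with an interaction of 1.19 (adjusted p = 0.0056).

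SLC19A1, the reduced folate carrier, fell in both populations and less in siMLK4 cells. It read 598, 651 and 390 normalized reads in siNT vehicle, 39.7, 28.5 and 20.3 in siNT doxorubicin, 322, 390 and 284 in siMLK4 vehicle, and 72.1, 58.4 and 81.7 in siMLK4 doxorubicin. The interaction was 1.32 (SE 0.25, limma adjusted p = 0.02), and the call was lost without siMLK4 doxorubicin replicate 1 or siNT doxorubicin replicate 2 or 3. KIF21B, a kinesin, had the highest called value, 1.91 (SE 0.42, adjusted p = 0.042), with 915, 347 and 1163 normalized reads in siNT vehicle, and passed in 2 of the 12 fits without 1 library, with an adjusted p of up to 0.12. AJAP1 (1.47), RHPN1 (1.20), PKD1 (1.23) and CXCL10 (1.17) complete the 15 most positive genes. AJAP1 passed in 8, RHPN1 in 5 and PKD1 in 2 of the 12 fits without 1 library, with the highest limma adjusted p (0.069, 0.078 and 0.12) without siMLK4 doxorubicin replicate 1, and CXCL10 passed in all 12. Of these 15, 6 were called in all 12 fits without 1 library and 13 with limma-voom on the recovered reads, which weights low counts differently and called 0.94% of all genes (0.494% positive and 0.447% negative).

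Turning to the negative side, the 2 lowest interactions belonged to an enzyme and a receptor. PADI2, which converts arginine in proteins to citrulline, read 54, 78.9 and 99.9 normalized reads in siNT vehicle, 444, 590 and 678 in siNT doxorubicin, 75.1, 71.7 and 85.4 in siMLK4 vehicle, and 120, 113 and 111 in siMLK4 doxorubicin. The siNT doxorubicin libraries stood apart from the other 9. It rose by 2.31 with siNT and by 0.38 with siMLK4, and the interaction was called in all 12 fits without 1 library, with adjusted p of up to 0.012.

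KIT (ENSG00000157404), the receptor tyrosine kinase for stem cell factor, responded in opposite directions. It read 66.9, 68.5 and 77.5 normalized reads in siNT vehicle, 117, 144 and 158 in siNT doxorubicin, 402, 338 and 281 in siMLK4 vehicle, and 128, 108 and 138 in siMLK4 doxorubicin. All siMLK4 vehicle libraries were above all others, and the 2 doxorubicin groups overlapped. KIT rose by 0.67 in siNT cells and fell by 1.16 in siMLK4 cells, with an interaction of −1.83 (SE 0.19, limma adjusted p = 0.0016). NYNRIN (−1.51) and PLEKHG4B, a guanine nucleotide exchange factor (−1.43), likewise rose in siNT and fell in siMLK4 cells.

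Another set rose with doxorubicin in both populations and less in siMLK4 cells. FBXO32, the substrate receptor atrogin-1 of a ubiquitin ligase, read 137, 105 and 187.5 normalized reads in siNT vehicle, 1161, 1146 and 1072 in siNT doxorubicin, 220, 235 and 315 in siMLK4 vehicle, and 654, 659 and 675 in siMLK4 doxorubicin. The siMLK4 groups lay between the siNT groups. Its interaction was −1.40 (SE 0.21, limma adjusted p = 0.0056). ID2, an inhibitor of helix-loop-helix transcription factors and a BMP target, started higher in siMLK4 cells (424 ± 57.7 against 117.5 ± 12.3 normalized reads, SD, n = 3) and reached a similar level under doxorubicin (1519 ± 137.5 against 1244 ± 122), with an interaction of −1.23 (SE 0.17, adjusted p = 0.0043). RASSF10 (−1.62), a Ras-association domain protein, BASP1 (−1.59) and HAP1 (−1.31), which binds huntingtin, followed this course too, and all 5 genes were called in all 12 fits without 1 library.

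In other genes, such as IDI1, PLAT and SLC6A2, the siRNA groups differed under doxorubicin alone. IDI1, an isomerase of the mevalonate pathway, read 3856, 3920 and 3552 normalized reads in siNT vehicle, 7355, 7476 and 7369 in siNT doxorubicin, 3804, 4026 and 3303 in siMLK4 vehicle, and 3248.5, 3211 and 3406 in siMLK4 doxorubicin. The siNT doxorubicin libraries were the only ones to rise. Its interaction was −1.13 (SE 0.14, limma adjusted p = 0.0023), while the other 34 of 35 measured genes of sterol and fatty acid synthesis had no called interaction and the list median was 0.10.

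PLAT, tissue-type plasminogen activator, fell in siMLK4 cells alone. It read 909, 972 and 945 normalized reads in siNT vehicle, 830, 848 and 1146 in siNT doxorubicin, 929, 889 and 990 in siMLK4 vehicle, and 343, 276 and 429 in siMLK4 doxorubicin. The interaction was −1.30 (SE 0.20, limma adjusted p = 0.0073). SLC6A2, the noradrenaline transporter, rose in siNT cells (1.38) and not detectably in siMLK4 cells (0.02), and DLX3, a homeobox factor of epidermal differentiation, did the same (1.43 and 0.06). DLX3 was, however, higher in siMLK4 than in siNT cells in vehicle (0.59, limma adjusted p = 0.0072) and lower under doxorubicin (−0.78, adjusted p = 0.0012). SERPINB13, a protease inhibitor of squamous epithelium, fell in both and more in siMLK4 cells (−0.96 and −2.31), and its interaction of −1.35 passed in 5 of the 12 fits without 1 library (adjusted p of up to 0.076). It too was higher in siMLK4 cells in vehicle (0.59, limma adjusted p = 0.037) and lower under doxorubicin (−0.77, adjusted p = 0.01). Of 33 measured proteases and inhibitors, 2 had a called negative interaction and 1 a positive one, against 0.623% and 0.576% of all genes. The positive one was SERPINE2 (0.84, limma adjusted p = 0.047, passing in 1 of the 12 fits), and the list median was −0.05.

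Of 35 measured cytokines and chemokines 3 had a called negative and 1 a called positive interaction, against 0.623% and 0.576% of all genes. The median was −0.02 (quartiles −0.44 and 0.31). With limma-voom on the recovered reads 0 of the 35 passed in either direction. In siNT cells 18 rose and 8 fell with doxorubicin, against 29.6% and 27.7% of all genes. In siMLK4 cells 14 rose and 6 fell, against 30.2% and 27.7%. Of 44 measured NF-κB targets, 2 were called negative (IL6 and ICAM1) and 1 positive (CXCL10), against 0.623% and 0.576% of all genes. Their median was 0.08.

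IL6, the inflammatory cytokine interleukin 6, went from 4, 2 and 1 reads in the siNT vehicle libraries to 507, 474 and 543 in siNT doxorubicin, and from 2, 0 and 3 in siMLK4 vehicle to 109, 78 and 190 in siMLK4 doxorubicin. Both vehicle groups were at or near the floor of 3 reads, and the doxorubicin groups did not overlap. The level in siMLK4 doxorubicin, 109.9 ± 55.8 normalized reads (SD, n = 3), was at least 35.75-fold above this floor, so that IL6 was still induced. On the variance-stabilized scale, which compresses low counts, the interaction was −1.72 (SE 0.29, limma adjusted p = 0.011), but with limma-voom on the recovered reads it did not pass (−1.54, adjusted p = 0.61). The difference between the siRNAs under doxorubicin, −1.85 (adjusted p = 3.1e-05), does not rest on those reads.

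TNFSF15, a TNF family ligand also called TL1A, read 98.6, 58.1 and 127 normalized reads in siNT vehicle, 508, 654.5 and 678 in siNT doxorubicin, 86.2, 66.8 and 64.9 in siMLK4 vehicle, and 155, 154 and 245 in siMLK4 doxorubicin. It rose in both populations, and the doxorubicin groups did not overlap. The interaction was −1.29 (SE 0.27, limma adjusted p = 0.034), and it passed in 4 of the 12 fits without 1 library (highest adjusted p = 0.12, without siMLK4 doxorubicin replicate 1) and not with limma-voom (adjusted p = 0.092). IL24 had an interaction of −1.43 (adjusted p = 0.015) from 1, 9 and 4 reads in siMLK4 vehicle and 9, 13 and 12 in siMLK4 doxorubicin, which limma-voom did not call (−0.96, adjusted p = 0.64).

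The other 4 cytokine genes singled out by the study did not pass. CXCL6 stood at −0.76 (SE 0.18, limma adjusted p = 0.059), with 74.75, 76.35 and 76.04 normalized reads in siNT doxorubicin against 23.74, 20.85 and 39.92 in siMLK4 doxorubicin. IL12A stood at −0.50 (adjusted p = 0.11) and CXCL1 at −0.34 (SE 0.28, adjusted p = 0.64). CXCL8, which encodes interleukin 8, was already far lower in siMLK4 vehicle (73.1, 116 and 145 normalized reads against 1058, 493 and 729 in siNT vehicle) and rose in both populations, with an interaction of 0.43 (SE 0.37, adjusted p = 0.67). A difference of responses was not detectable for these 4 genes with 3 libraries per group.

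CXCL10, a chemokine induced by interferon, was the called cytokine in the positive direction. Its vehicle libraries held 2 to 6 reads, and it reached 15, 13 and 18 reads in siNT doxorubicin and 103, 87 and 120 in siMLK4 doxorubicin. The interaction was 1.17 (SE 0.17, limma adjusted p = 0.0047) and was not called with limma-voom (adjusted p = 0.13), while the siRNA difference under doxorubicin was 1.29 (adjusted p = 6.8e-06). Most interferon-stimulated genes leaned the other way, with a median of −0.19 and 13 of 46 positive, against 52.1% of all genes. Called members numbered 1 in each direction, against 0.576% positive and 0.623% negative of all genes. Among them HERC5, a ligase for the ubiquitin-like protein ISG15, was called at −0.87 (adjusted p = 0.017) and IFI27 at 0.81 (adjusted p = 0.025), which passed in 8 and 5 of the 12 fits without 1 library. ICAM1, an adhesion receptor for leukocytes, rose in both populations (1.63 and 0.95), and its interaction of −0.68 (adjusted p = 0.042) passed in 2 of the 12 fits.

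Keratins, the intermediate filaments of epithelial cells, included 3 genes with a more negative response in siMLK4 cells. Of 20 measured keratins 3 had a called negative interaction, KRT80, KRT15 and KRT5, against 0.623% of all genes, and none a positive one. The median was −0.22 (quartiles −0.83 and −0.05), and −0.51 with limma-voom on the recovered reads. In siNT cells 13 fell and 3 rose, against 27.7% and 29.6% of all genes. In siMLK4 cells 12 fell and none rose, against 27.7% and 30.2%. The list means lay at −0.64, −0.75 and −0.54 in siNT doxorubicin and at −1.28, −1.43 and −1.05 in siMLK4 doxorubicin without overlap, and at −0.32, −0.32 and −0.0031 in siMLK4 vehicle, where replicate 3 is the library with the highest ribosomal protein share.

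KRT5 (ENSG00000186081), the basal epithelial keratin, averaged 20878 ± 3207 normalized reads in siNT vehicle and 8817 ± 1474 in siNT doxorubicin, against 32257 ± 1190 and 7035 ± 1101 in the siMLK4 groups (SD, n = 3). It fell in both populations and the 2 doxorubicin groups overlapped. Its interaction was −0.96 (SE 0.22, limma adjusted p = 0.047) and passed in 2 of the 12 fits without 1 library. KRT15, another basal keratin, fell from 353, 338 and 322 to 81.2, 80.4 and 91.3 normalized reads in siNT cells and from 559, 523 and 805 to 59.4, 55.9 and 69 in siMLK4 cells. Its interaction was −1.07 (limma adjusted p = 0.017), and the call was lost without siMLK4 doxorubicin replicate 1 or 2. With a replicate block within treatment, KRT15 (adjusted p = 0.070) and KRT5 (0.088) did not pass. KRT80 rose in siNT cells (1.33) and did not move detectably in siMLK4 cells (0.05), with an interaction of −1.28 (adjusted p = 0.029) that passed in 5 of the 12 fits. KRT81, at 0.33, was the highest of the list. Of 41 genes of squamous differentiation and desmosomes, 28 fell with siNT and 31 with siMLK4, against 27.7% of all genes with either siRNA. None of the 41 had a called interaction, and the median interaction was 0.03.

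NRF2 targets had the lowest median interaction of the 41 lists on the variance-stabilized values. With limma-voom on the recovered reads, keratins (−0.51), replication-dependent histones (−0.36) and S100 proteins (−0.307) lay below NRF2 targets (−0.305). NRF2 is the transcription factor of the antioxidant response. Of 28 measured targets 24 had a value below 0, with a median of −0.30 (quartiles −0.44 and −0.13). In siNT cells 17 fell and 1 rose (median −0.42), against 27.7% and 29.6% of all genes. In siMLK4 cells 23 fell and none rose (median −0.77), against 27.7% and 30.2%. List means were −0.48, −0.58 and −0.41 in siNT doxorubicin and −0.74, −0.88 and −0.59 in siMLK4 doxorubicin, which did not overlap, and the vehicle groups did. NQO1, a quinone reductase that also acts on doxorubicin, had the lowest value of the list (−0.70, limma adjusted p = 0.11), and SLC7A11, the cystine transporter shared with the ATF4 list, the highest (0.45, adjusted p = 0.49).

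Other functions held 1 to 3 called genes, against 0.576% of all genes called positive and 0.623% called negative. EGLN3, a prolyl hydroxylase induced by hypoxia, was called at −1.07 (limma adjusted p = 0.013) and PFKL, the liver-type phosphofructokinase, at 0.82 (adjusted p = 0.022), in a glycolysis and hypoxia list of 36 genes that also holds VEGFA and had a median of 0.07. ITGA3, an integrin subunit that binds laminin, was called at 0.82 (adjusted p = 0.012), alone among 15 measured integrins. CTSV, a lysosomal cathepsin, was called at −0.99 (adjusted p = 0.0081), alone among 53 lysosome and autophagy genes. TAP2, a peptide transporter of antigen presentation, was called at 0.77 (adjusted p = 0.036), alone among 17 genes of that list. Of 34 collagens and laminins, COL13A1 was called at 1.10 (adjusted p = 0.0043) and COL16A1 at −0.90 (adjusted p = 0.02). Of these 7 genes, CTSV and COL13A1 were called in all 12 fits without 1 library, EGLN3 and ITGA3 in 11, COL16A1 in 9, PFKL in 7 and TAP2 in 4. With a replicate block within treatment, CTSV passed (limma adjusted p = 0.047), while EGLN3 (0.067) and COL16A1 (0.077) did not.

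No member of 22 of the 41 function lists had a called interaction. These include functions that doxorubicin moved strongly with both siRNAs. Of 42 replication-dependent histones, 32 rose in siNT and 33 in siMLK4 cells, against 29.6% and 30.2% of all genes. Their median interaction was 0.02, but −0.36 with limma-voom on the recovered reads. Of 42 SR and hnRNP splicing factors, 31 fell with each siRNA (median interaction −0.01), against 27.7% of all genes. The 22 lists also include heat shock proteins (median 0.00), proteasome subunits (−0.06), the respiratory chain (−0.05) and the MLK kinases with the JNK cascade (0.20). Cytosolic ribosomal proteins had a median of −0.13 with 10 of 80 positive and none called, and without siMLK4 vehicle replicate 3 the median was 0.11. Genes of doxorubicin targets and transport had a median of −0.16, from 0.84 for SLC31A1 to −0.50 for ABCG2, an efflux pump that carries anthracyclines, and none passed.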

How the data were processed

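Per the submitters' processing notes, the tools the authors used were Trimmomatic 0.39, HISAT2, HTSeq 0.6.0 and DESeq2 1.26.0. These notes name hg19 and the supplementary methods GRCh38, and the table itself holds gene identifiers without coordinates. The deposited table gives variance-stabilized log2 values, as found from the values themselves. Inverting it returned whole reads (within 0.05) for 100% of the values in each library. Normalized reads are these reads divided by size factors of 0.852 to 1.2. GENCODE 44 annotated 16957 of the 17013 genes.

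The values were fitted with limma 3.58.1 in R 4.3.3 (lmFit on 4 group means, eBayes with a variance trend, 8 residual degrees of freedom), with Benjamini-Hochberg adjustment over the whole table. The threshold for a call was an adjusted p of 0.05. On simulated data the fit called 61 of 100 genes with a 2-fold interaction, 100 of 100 with a 4-fold one and 6 of 16813 unchanged genes. The simulated libraries were independent, with the same dispersion for every gene, and genes with low counts were not given an interaction. They had no siRNA difference in vehicle and no slopes on transcript length or GC. These rates therefore need not hold for the real libraries.

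Named genes were MAP3K21, the cytokine genes IL6, CXCL8, CXCL1, CXCL6, IL12A and TNFSF15 of the study, marker genes, the 15 most negative and 15 most positive called protein-coding genes with a group mean of at least 50 normalized reads, called members of the gene lists, and the highest and lowest member of each list. Other genes named were chosen after their values were seen (EREG, AREG, ERRFI1 and those said to be so). The members, lists and tests were chosen with earlier results of these data known, and no list was tested as a set. Results for 2 list members are not reported here. Alternatives changed the size factors, read filter, transformation, variance model, library weights and replicate block, and left out each library in turn. Depth limits low genes, and intervals cover the spread between libraries.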

Additional observations from a re-analysis of the deposited data

Results flagged for a closer look

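The number of genes whose response to doxorubicin differed between siNT and siMLK4 cells, 204 by the interaction term in limma, is listed because it is a tested difference of 1 effect between 2 cell populations.

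A second entry counts the 25 of these genes that passed in opposite directions with the 2 siRNAs, 11 with a positive and 14 with a negative interaction. Apart from KIT, NYNRIN, PLEKHG4B, HBEGF, ETV1, TGFA and TAP2, they include PIM1, a serine/threonine kinase (−0.59 in siNT and 0.50 in siMLK4 cells), CYP1B1, a cytochrome P450 (−0.35 and 0.63), FOXJ1, a factor of ciliated cells (−0.64 and 0.47), SP6, an epithelial transcription factor (0.81 and −0.40), and TM4SF1, a tetraspanin-like surface protein (0.63 and −0.40). These 5 genes were chosen after their values were seen. Of the 12 fits without 1 library, the interaction passed in 4 for PIM1, 6 for CYP1B1, 5 for TM4SF1, 11 for FOXJ1 and 12 for SP6, and in 10 for ETV1, 11 for HBEGF, 7 for TGFA and 4 for TAP2. Library quality and transcript length were not tested as the source of the opposite signs.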

How the results depend on the processing

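All 204 called genes kept the sign of their interaction in each alternative in which they were tested. The count of 204 rose to 1387 with length slopes, 561 with GC slopes and 1714 with both as covariates, and stood at 532 at an adjusted p under 0.1, 2469 at an unadjusted p under 0.05 and 47 at the stricter thresholds. Library quality weights gave 5343, but their estimation did not converge. At the stricter thresholds the count was 225, 85 and 320 with the same covariates, 542 with quality weights, 29 with limma-voom and 13 without the 2 vehicle libraries of highest ribosomal protein share. The covariates and the last setting were chosen after seeing the data. Of the 1403 genes in function lists, 34 were called, against 187, 81 and 259 with the covariates and 442 with quality weights. In siMLK4 cells the response passed for 15208 genes with quality weights. Leaving out 1 library gave 58 to 351 interactions, 0 to 37 at the stricter thresholds, 12 to 45 in the lists, 8439 to 10235 responses in siNT and 8383 to 10171 in siMLK4 cells. The lowest counts came without siMLK4 doxorubicin replicate 1 (58), siNT doxorubicin replicate 2 (80) and siMLK4 doxorubicin replicate 2 (85). Size factors moved the median of all genes by at most 0.04.

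Of the 146 genes taken by the naming rule, 17 changed the sign of their interaction in at least 1 alternative, none of them among the 53 called. With limma-voom VIM changed from −0.69 to 0.61 and KRT6B from 0.10 to −0.53, and with log2(normalized reads + 1) they stood at 0.24 and −0.40. With length and GC slopes the values that changed sign were those of CENPK (0.12), CXCL1 (0.0017), HSPA5 (0.16), KRT18 (0.13), KRT6B (−0.017) and THY1 (0.072), with length slopes EGFR (−0.035) and TP63 (−0.014), and with GC slopes THY1 (0.0067). With library quality weights they were CXCL8 (−0.091), EGFR (−0.041), FAP (0.23), MT-ATP8 (0.036), THY1 (0.18) and TP63 (−0.13), and with library totals EGFR (−0.012), KRT6B (−0.014) and TP63 (−0.038). Without the 2 vehicle libraries of highest ribosomal protein share they were FAP (0.12) and MT-ATP8 (0.13). Leaving out 1 library gave ranges that crossed 0 for, among others, CD4 (−0.23 to 0.11), EGFR (−0.20 to 0.29), FAP (−0.14 to 0.093), HSPA5 (−0.17 to 0.050), KRT17 (−0.30 to 0.0076), KRT18 (−0.29 to 0.059), MT-ATP8 (−0.47 to 0.034), PGR (−0.14 to 0.030), RORA (−0.30 to 0.16), THY1 (−0.19 to 0.021) and TP63 (−0.22 to 0.23). The cause of these changes was not tested.

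Replicate numbers were shared by the groups but did not pair them throughout. The deviations of equally numbered libraries had correlations of 0.19, 0.52 and 0.56 between the doxorubicin groups and of 0.46, 0.105 and 0.205 between siNT vehicle and siNT doxorubicin, and 3 values over 0.1 in no other pair of groups (−0.72, 0.33 and −0.52 between the vehicle groups). A replicate block over all groups gave 237 interactions, and a replicate block within treatment gave 66, with 0 at the stricter thresholds and 12 in the lists. It kept 62 of the 204 and 1 of the 3 called keratins (KRT80), and of the 4 called cytokines it kept IL6 and CXCL10 but not IL24 (adjusted p = 0.070) or TNFSF15 (adjusted p = 0.069). Other named genes lost their calls under this block too. They include ARC (adjusted p = 0.079), HERC5 (0.088), BTG2 (0.096), SERPINB13 (0.097) and ICAM1 (0.0995). Depth limits IL6 and CXCL10, with few reads in both vehicle groups, and IL24, with few in siMLK4 vehicle.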

Other observations

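Long non-coding RNAs were unevenly divided between the directions. They made up 23 of the 106 negative and 4 of the 98 positive interactions, against 2462 of all 17013 genes (14.5%). Among the 14 genes of the negative set that passed in opposite directions, MIR100HG, the host transcript of a microRNA cluster, rose in siNT cells (0.55) and fell in siMLK4 cells (−0.28), and it was chosen after its values were seen.

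Positive interactions were more frequent among genes with GC-rich transcripts. Of the 1696 genes with the highest GC share (61.8 to 77.5%), 27 had a called positive and 5 a called negative interaction. Their median interaction was 0.15, from median responses of −0.09 in siNT and 0.05 in siMLK4 cells. Of the 1696 genes with the lowest share, 7 were called positive and 8 negative, and the median was 0.01. The shares of all genes were 0.576% called positive and 0.623% called negative. The median GC share was 57.1% for positive and 50% for negative genes, against 48.6% for all. Library slopes on GC (log2 per 10 percentage points) were 0.07, 0.05 and 0.03 in siMLK4 doxorubicin and 0.01, −0.09 and −0.11 in siNT doxorubicin, and −0.02, 0.03 and 0.09 in siMLK4 vehicle and 0.04, 0.01 and −0.11 in siNT vehicle. With these slopes as a covariate all 204 genes remained called, and the part of GC in the values was not tested further.

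Clock genes had a median interaction of 0.28 with 13 of 17 positive and none called, from 0.63 for NR1D1 to −0.06 for RORA. S100 proteins had a median of −0.25 with 3 of 13 positive and none called, from 0.44 for S100P to −0.76 for S100A13. Their median ranged from −0.41 to −0.13 without 1 library and from −0.33 to −0.02 in the other alternatives.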
